A study of Mus musculus with 24 samples.

Results

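The Hox genes of the 4 mouse clusters were followed in primary myoblasts (PMs) and in C2C12 cells. Members were all genes of the deposited table named Hox with a cluster letter and a paralog number, which gave 38 genes of 28109, with 11 in HoxA, 10 in HoxB, 9 in HoxC and 8 in HoxD. Hox genes encode homeodomain transcription factors that lie in clusters in the order in which they are used along the head-to-tail axis of the embryo. Low paralog numbers mark anterior positions and high numbers mark posterior positions, and in the limb bud the posterior HoxA and HoxD genes also pattern the proximal-distal axis. Cells taken from adult tissue often keep the Hox pattern of the site they came from.

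RNA was sequenced in 12 groups of 2 biological replicates, 24 libraries in all. PMs were isolated from 3 to 4-week-old wild-type mice of the strain labelled C57/B6, and the muscles they came from are not given in the sources used here. C2C12 is an established clonal line of mouse myoblasts, labelled as strain C3H. Cells of either kind received a control siRNA (siControl, named in the labels after luciferase) or a mix aimed at both Tead1 and Tead4 (siTead1/4), which encode transcription factors of the Hippo pathway, and were collected at day 0, 3 or 6 of differentiation in low-serum medium. Cells of day 0 had also been transfected. PMs grew on matrigel in another medium than C2C12 cells, so cell type, strain, culture and library series cannot be told apart in any comparison of PMs with C2C12 cells.

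The libraries held 25453830 to 52784510 counts on genes. Over tested genes, replicates of a group differed on the log2 scale with an SD of 0.212 to 0.357 in the siControl groups and in PMs, and 0.418 to 0.504 in the siTead1/4 groups of C2C12 cells. The summed CPM (counts scaled to library size) of Tead1 and Tead4 in siTead1/4 libraries were 23.6% to 46.1% of the siControl mean in PMs and 7.86% to 59.8% in C2C12 cells. In C2C12 cells at day 6, Tead1 had 70.6 and 77 CPM with siTead1/4 against 76 and 136 in siControl, so these groups overlapped. Tead4 had 39.7 and 57.2 CPM there against 86.5 and 150. Myogenic markers were counted in both kinds of cells, with a summed level per kb of 2490 to 7110 in PMs and 283 to 4350 in C2C12 cells over 12 genes. A level per kb is the CPM on the library size scaled by the trimmed mean of M-values (TMM), divided by the gene length in kb, and is the scale used wherever 1 gene is set beside another.

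The RefSeq promoter table, in the build GRCm38.p6, held 21 of the 38 genes with 23 start sites. The 250 bases before the start are shown for the HoxD genes that were counted in PMs and all but silent in C2C12 cells. They are also shown for 1 start of Hoxa10, a gene that was high in both. The window of the other Hoxa10 start (chr6:52240855-52241104) is not shown. Capitals mark TAAT or its reverse complement ATTA, the core letters of many homeodomain sites.
Hoxd3 (chr2:74711743-74711992, plus strand): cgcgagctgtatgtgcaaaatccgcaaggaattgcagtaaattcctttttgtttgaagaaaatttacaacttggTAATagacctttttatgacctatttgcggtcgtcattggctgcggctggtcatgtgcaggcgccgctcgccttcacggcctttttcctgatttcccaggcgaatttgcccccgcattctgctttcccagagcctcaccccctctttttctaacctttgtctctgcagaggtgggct
Hoxd8 (chr2:74704365-74704614, plus strand): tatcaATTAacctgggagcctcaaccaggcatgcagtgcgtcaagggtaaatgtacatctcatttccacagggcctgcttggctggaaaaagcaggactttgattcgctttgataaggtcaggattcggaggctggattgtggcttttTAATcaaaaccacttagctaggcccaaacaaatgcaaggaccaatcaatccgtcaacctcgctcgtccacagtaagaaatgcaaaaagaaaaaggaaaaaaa
Hoxd9 (chr2:74697513-74697762, plus strand): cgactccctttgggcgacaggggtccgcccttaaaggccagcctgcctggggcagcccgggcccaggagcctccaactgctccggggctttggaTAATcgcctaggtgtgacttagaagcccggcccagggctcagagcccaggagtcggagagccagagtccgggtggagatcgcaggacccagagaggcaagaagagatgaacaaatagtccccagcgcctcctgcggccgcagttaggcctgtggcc
Hoxd10 (chr2:74691641-74691890, plus strand): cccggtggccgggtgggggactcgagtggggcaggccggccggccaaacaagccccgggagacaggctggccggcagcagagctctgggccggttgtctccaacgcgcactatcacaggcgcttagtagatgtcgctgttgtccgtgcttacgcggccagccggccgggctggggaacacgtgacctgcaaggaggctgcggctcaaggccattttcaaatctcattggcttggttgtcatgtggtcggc
Hoxa10 (chr6:52234940-52235189, minus strand): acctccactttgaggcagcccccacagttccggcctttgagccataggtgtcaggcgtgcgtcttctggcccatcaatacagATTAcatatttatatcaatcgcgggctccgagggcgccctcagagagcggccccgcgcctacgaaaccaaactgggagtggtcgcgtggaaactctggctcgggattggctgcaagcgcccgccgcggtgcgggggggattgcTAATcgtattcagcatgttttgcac
TAAT was searched on both strands and was found in 17 of the 23 member promoters (73.9%) and in 54.9% of all 32851 promoters of the same length. The TEAD motif CATTCC, also searched on both strands, was found in 1 of the 23, that of Hoxa9, against 12.6% of all promoters, and in none of the 9 HoxD windows. The E-box CANNTG was found in 16 of the 23 (69.6%) and in 66.2% of all promoters. A match is a description of letters only.

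PMs and C2C12 cells shared a Hox pattern dominated by posterior HoxA and HoxC genes, with HoxB nearly silent. The summed level of all 38 genes was 76.3 to 92.4 per kb in PMs (median 86.4) and 76.1 to 108 in C2C12 cells (median 84.4), so the ranges overlapped. HoxC made up a median of 55.3% of that sum in PMs and 63.1% in C2C12 cells, and HoxA 36.8% and 36.5%. HoxB made up 0.234% and 0.351%. HoxD was the cluster that set the 2 apart, with a median of 6.87% in PMs, from 1.22% to 11%, and 0% in C2C12 cells, from 0% to 0.0209%. The plot of cluster shares by library shows these values.

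**Figure D1:**
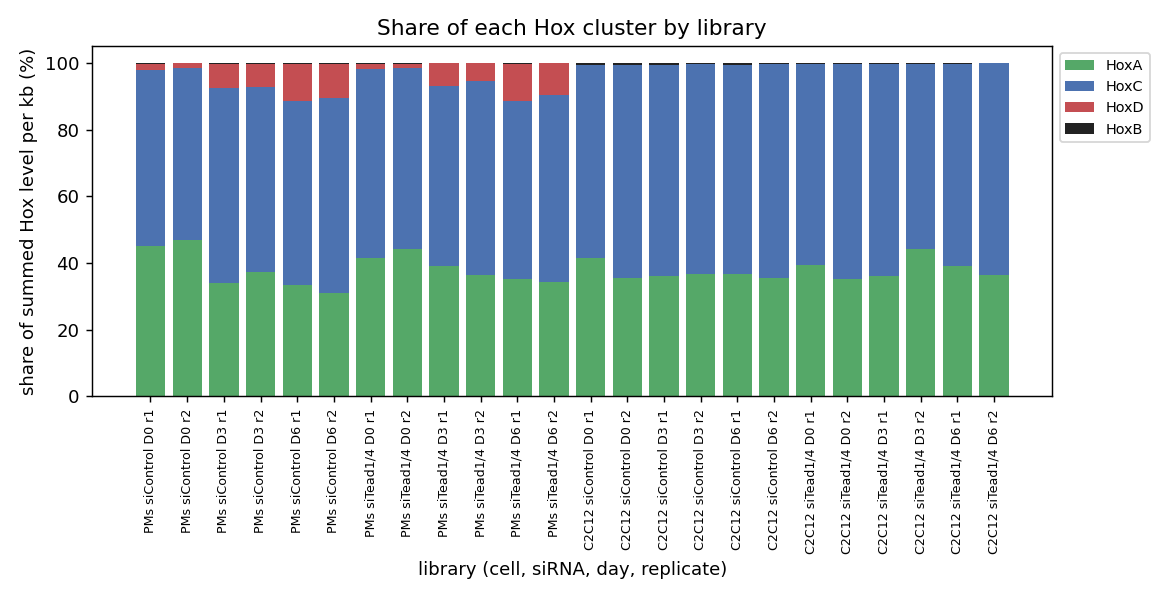
Share of the summed Hox level per kb (y axis, percent) that each cluster took in each of the 24 libraries (x axis). HoxD is visible in the 12 PM libraries, where it took 1.22% to 11%, and HoxB took at most 0.628% in any library.

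Hoxc10, a posterior gene that patterns lumbar segments and hindlimb motor neurons, had the highest level of all members in all 24 libraries, 20.3 to 32 per kb in PMs (median 25.8) and 16.8 to 33 in C2C12 cells (median 21.5). The next 3 were the same genes in both. Hoxa10, a regulator of lumbar patterning, stood at 7.42 to 9.33 per kb in PMs and 7.15 to 10.7 in C2C12 cells. Hoxc11 stood at 6.01 to 12.1 and 5.76 to 18.5. Hoxa11, needed for the middle segment of the limb, stood at 3.75 to 11.2 and 6.08 to 12. Together these 4 genes took 51.5% to 65.2% of the summed level in PMs and 52.4% to 69.1% in C2C12 cells. Their order below Hoxc10 is not resolved, since the ranges of Hoxa10, Hoxc11 and Hoxa11 overlapped within each kind of cells. By paralog group, group 10 took a median of 40.5% in PMs and 36.7% in C2C12 cells, group 11 took 14.1% and 18%, and group 9 took 12.3% and 13.3%. Over the 30 genes of HoxA, HoxB and HoxC the mean levels of the 2 kinds of cells had a Spearman rho of 0.943. This is a description over genes that share libraries and neighbours, with HoxD left out. The 10 HoxB genes ranked below all HoxA and HoxC genes in both kinds of cells, so part of this rho is the split of nearly silent from expressed genes.

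**Figure D2:**
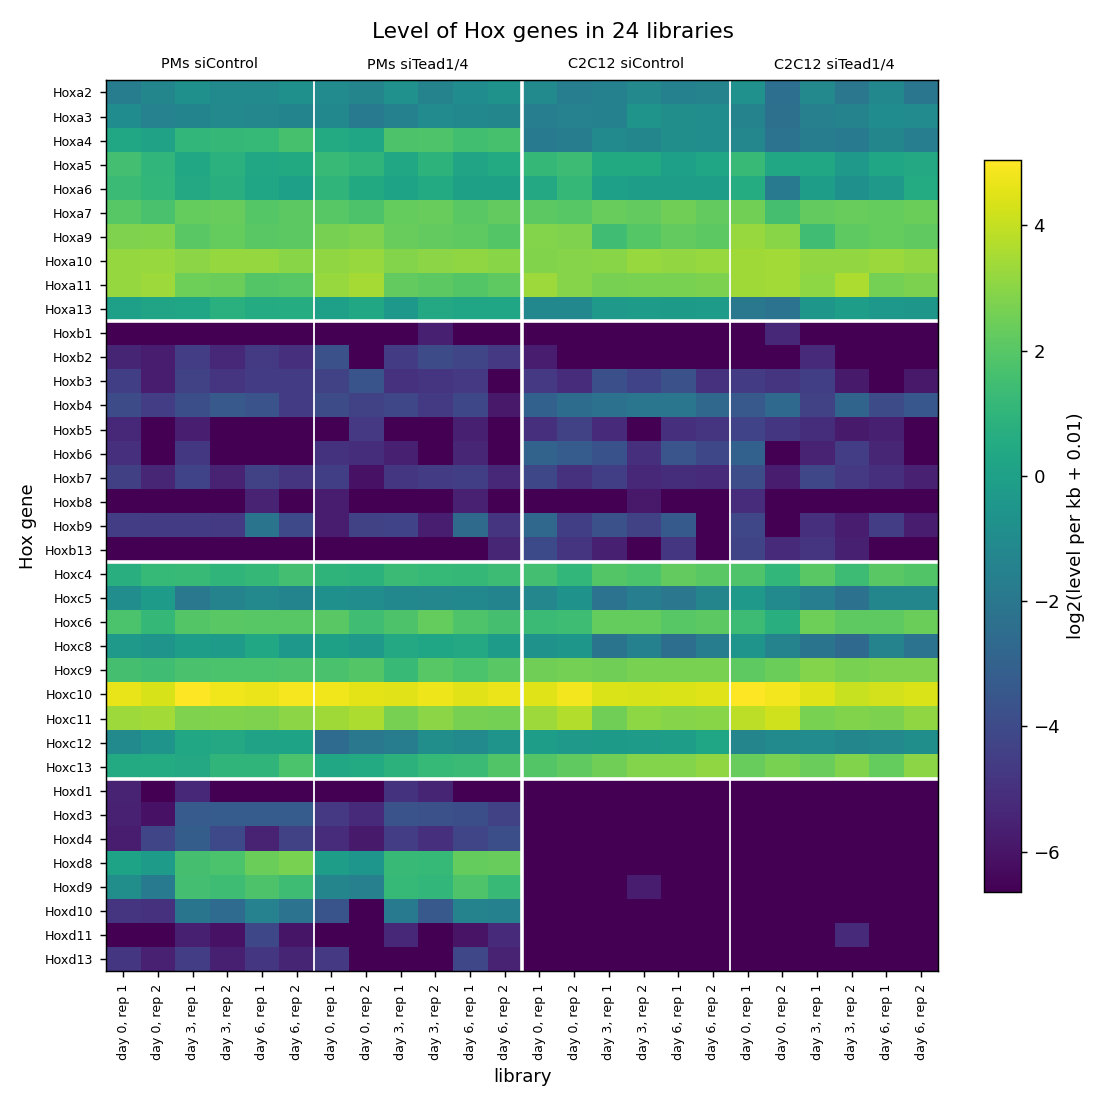
Heat map of log2(level per kb + 0.01) for Hox genes (rows, by cluster and paralog number) in the 24 libraries (columns). Hoxc10 is the brightest row in both kinds of cells, the HoxB rows are dark throughout, and the HoxD rows are dark in the 12 C2C12 columns.

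Of the 38 genes, 27 passed the filter on low counts in the fit of all 24 libraries, which were all 11 of HoxA, all 9 of HoxC, 3 of HoxB (Hoxb4, Hoxb6 and Hoxb9) and 4 of HoxD (Hoxd3, Hoxd8, Hoxd9 and Hoxd10). The other 11 were 7 HoxB genes, with 1 to 55 counts per gene summed over the 12 libraries of either kind of cells, and Hoxd1, Hoxd4, Hoxd11 and Hoxd13, with 5 to 41 counts over the PM libraries. None of the 38 was at 0 in all libraries. Because the library kit did not keep the strand and 21 members overlap another gene of the table, reads of some members cannot be told apart from those of a neighbour. Hoxa3 overlaps Hoxa4, Hoxa5 and Hoxa6, Gm20398 overlaps the HoxC genes from Hoxc5 to Hoxc10, Hoxa11 overlaps its antisense gene Hoxa11as, and Hoxd3 overlaps Hoxd4.

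HoxD expression was nearly confined to PMs. All 8 HoxD genes together (chr2:74506367-74603200 in mm9) held 5832 counts in the 12 PM libraries and 5 counts in the 12 C2C12 libraries, of which 1 was Hoxd9 in replicate 2 of siControl at day 3 and 4 were Hoxd11 in replicate 2 of siTead1/4 at day 3. Hoxd8 and Hoxd9 supplied 92.6% of the PM counts. Hoxd8, which acts in trunk patterning, had 141 and 81 counts in the day 0 siControl PMs, then 298 and 364 (day 3), then 456 and 537 (day 6), and no count in any C2C12 library. Hoxd9, which shares roles with its paralogs in the lumbosacral region and forelimb, had 56 and 21, 230 and 226, and 234 and 180 counts on the same days, and 1 count in C2C12 cells. The groups did not overlap at any day for either gene. Against a floor of 3 counts in 1 library, Hoxd8 was at least 31.2-fold, 124-fold and 161-fold higher in PMs at days 0, 3 and 6. For Hoxd9 the bound was at least 10.5-fold at day 0 and at least 67-fold at day 6, and at day 3 the ratio to the single C2C12 count was 557, with a 95% counting interval of 99.4 to 22000. Such floors and intervals cover counting error only.

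The other HoxD genes were low in PMs as well. Hoxd3, an anterior member used in neck patterning, had 3 and 1 counts in the day 0 siControl PMs, 19 and 22 by day 3 and 17 and 17 by day 6, and was at least 7.69-fold higher than the C2C12 floor at day 3 and at least 5.51-fold at day 6. Hoxd10, a limb and lumbosacral gene, had 3 and 2, 21 and 17, and 29 and 17 counts, with bounds of at least 7.2-fold and 7.44-fold at days 3 and 6. Hoxd4 was at least 2.68-fold higher at day 3, with 9 and 5 counts. At day 0 no bound above 1 could be given for these 3. Hoxd1, Hoxd11 and Hoxd13, the last a digit gene, stayed at or under 8 counts in each library. All 4 HoxD genes in the fit were called over the 6 conditions, Hoxd10 no longer without replicate 1 of siTead1/4 PMs at day 0, but they passed the filter through the PM libraries alone and had to differ, so these calls add nothing to the counts.

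Of 11 genes within 500 kb of the HoxD cluster, 2 averaged more than 3 counts a library in both kinds of cells, and both were well counted in C2C12 cells. Lnp, 88.9 kb before the cluster, had a median of 63.4 CPM in PMs and 35.9 CPM in C2C12 cells, a log2 difference of 0.65 ± 0.09 (SE). Mtx2, a mitochondrial import gene 60.7 kb after the cluster, had 60.7 and 55.5 CPM, a log2 difference of 0.18 ± 0.05 (SE). Neither passed the fold threshold. Inside the cluster, the antisense gene 1700109F18Rik, which overlaps Hoxd3 and Hoxd8, had 257 counts in PMs and 0 in C2C12 cells, and Evx2, 8.45 kb before the cluster, had 3 and 0. In bulk RNA, fewer cells that express a gene and less RNA per cell cannot be told apart.

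**Figure D3:**
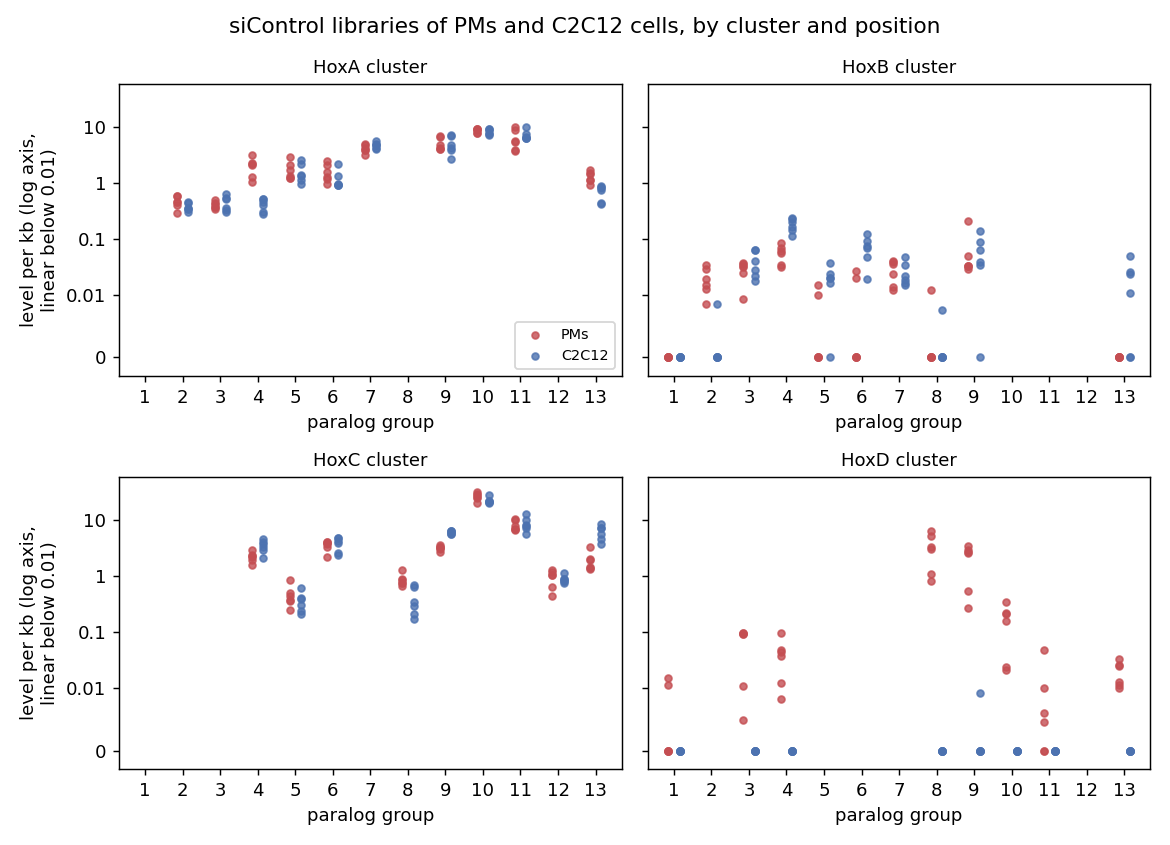
Level per kb (y axis, logarithmic above 0.01 and linear below) of Hox genes in the 6 siControl libraries of PMs and the 6 of C2C12 cells, by paralog group (x axis) and cluster (panels). Points are libraries. Hoxc10 is the highest gene in both kinds of cells, the highest HoxA points belong to groups 10 and 11, and in HoxD all C2C12 points but 1 lie at 0.

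Markers of other cells were measured beside the HoxD difference. Of these, 3 endothelial, 5 Schwann cell, 8 fibroblast and 4 macrophage markers passed the filter in the fit of C2C12 cells alone. Markers that passed through the PM libraries alone had to differ, so their calls add nothing to the counts. Over the 6 conditions, 19.7% of all genes were called higher in PMs and 11.2% lower. Of 7 endothelial markers, all tested, 6 were called higher in PMs and none lower over the 6 conditions, with a summed level per kb of 0.82 to 4.33 in PMs and 0.199 to 0.528 in C2C12 cells, and Emcn had 348 counts against 0. Of 8 Schwann cell markers, 5 of the 7 tested were higher in PMs, with sums of 18.5 to 66.4 and 1.35 to 66.5, and Sox10 had 628 counts against 2. Of 10 fibroblast markers, 3 of the 9 tested were higher and 4 lower in PMs, with sums of 149 to 1140 and 368 to 996. Thy1 had 14551 counts in PMs and 4 in C2C12 cells. In the other direction, Ly6a had 2326 and 46555 counts and Dcn had 4612 and 27216. Tcf21 had none in either. Of 7 macrophage markers, 1 of the 5 tested was higher and 1 lower, with sums of 1.3 to 2.17 and 2.17 to 6.16, and Ptprc had 5 counts in PMs and 4 in C2C12 cells. The part of such cells in the HoxD difference was not tested.

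In siControl cells, 5 members were called higher in PMs at day 0, beside 16.3% of all tested genes, 6 at day 3 (17.2% of all genes) and 6 at day 6 (15.7% of all genes). With HoxD set aside these counts were 2, 2 and 2 of 23, which is below the share of all genes. Called higher in C2C12 cells were 4 of 27 members at day 0 (10.5% of all genes), 2 at day 3 (12.6%) and 3 at day 6 (9.22%). For the mean over the 6 conditions of siRNA and day, 7 were higher in PMs (19.7% of all genes) and 3 in C2C12 cells (11.2%). Hoxb6 is among those higher in C2C12 cells at day 0 and over the 6 conditions. It passed the filter through the C2C12 libraries alone, so its calls add nothing to its counts. The median log2 difference was 0.02 over the 27 members and 0.03 over all 16926 genes. Calls needed a log2 difference beyond 1 and an adjusted p below 0.05 in edgeR's quasi-likelihood test.

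Hoxa4, an anterior gene of neck and upper trunk patterning, was higher in PMs at all 3 days. In siControl PMs of days 0, 3 and 6 it had 2.06 and 1.66, 3.42 and 3.51, and 3.66 and 4.99 CPM. The C2C12 libraries of the same days had 0.45 and 0.48, 0.731 and 0.648, and 0.848 and 0.835 CPM. Every PM library lay above every C2C12 library. The log2 differences were 1.99 ± 0.29 (SE, adjusted p = 3.47e-05), 2.33 ± 0.28 (adjusted p = 5.35e-06) and 2.36 ± 0.28 (adjusted p = 6.01e-06) in edgeR. Its neighbours in HoxA did not share this difference. Hoxa5 differed by 0.22 ± 0.13 over the 6 conditions, with an adjusted p of 0.129.

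At the other end of the axis, Hoxc13, the most posterior gene of HoxC, known for its role in hair and nail, was higher in C2C12 cells at all 3 days. The siControl PM libraries had 3.45 and 3.61, 3.28 and 4.95, and 4.85 and 8.18 CPM at days 0, 3 and 6, and the C2C12 libraries had 9.4 and 11.3, 14.1 and 18.2, and 18 and 21.4 CPM. The groups did not overlap at any day. The log2 differences were -1.56 ± 0.31, -1.97 ± 0.31 and -1.59 ± 0.31 (SE), with edgeR's adjusted p at 0.000668, 7.6e-05 and 0.000613. Hoxa13, the most posterior gene of HoxA, went the other way over the 6 conditions, with a log2 difference of 1.03 ± 0.12 (SE, adjusted p = 4.29e-07), and was called at day 0 alone among the 3 days of siControl. Without replicate 2 of siControl PMs at day 3, of siTead1/4 PMs at day 0 or of siTead1/4 PMs at day 3, or replicate 1 of siTead1/4 C2C12 cells at day 3, the difference over the 6 conditions was 0.95 to 1 and no longer called.

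Hoxb4, known for its use in blood stem cells, was low in both. It had 4 to 14 counts in the siControl PM libraries and 17 to 49 in those of C2C12 cells. The log2 differences at days 0, 3 and 6 were -1.62 ± 0.59, -1.55 ± 0.55 and -1.88 ± 0.60 (SE), all called by edgeR with adjusted p of 0.0376, 0.0293 and 0.0213. The day 3 call ended without any 1 of its 4 libraries, the day 0 call without either PM library, without C2C12 replicate 2 or in DESeq2 (adjusted p = 0.0577), and the day 6 call without PM replicate 2 or C2C12 replicate 1. With the siTead1/4 libraries in place of siControl none of the 3 was called (adjusted p from 0.105 to 0.169). Over the 6 conditions the difference was -1.45 ± 0.25 (adjusted p = 6.52e-05) and was kept when any 1 library was left out. Hoxb6 had 2 and 0 counts in siControl PMs at day 0 and 9 and 11 in C2C12 cells, a ratio of 9.01 with a 95% counting interval of 2.19 to 79.5, and its call ended without any 1 of these 4 libraries, in DESeq2 (adjusted p = 0.158) and with the siTead1/4 libraries (adjusted p = 0.276). Its call over the 6 conditions ended without replicate 1 of siTead1/4 C2C12 cells at day 0 or at day 6. Hoxb6 passed the filter through the C2C12 libraries alone, so neither call adds to its counts.

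Hoxc8, a thoracic gene, and Hoxc9, its posterior neighbour, differed in opposite directions over the 6 conditions, by 1.56 ± 0.16 (SE, edgeR adjusted p = 1.28e-07) for Hoxc8 and by -0.88 ± 0.08 (adjusted p = 4.71e-08) for Hoxc9. Hoxc8 was called higher in PMs at days 3 and 6 and not at day 0, where siControl PMs had 1.76 and 1.52 CPM and C2C12 cells 1.46 and 1.63. Hoxc9 passed the fold threshold at day 0 alone, with 7.4 and 6.62 CPM in PMs and 13.8 and 14.6 in C2C12 cells (-1.02 ± 0.20, adjusted p = 0.000724), and no longer without PM replicate 2 or C2C12 replicate 2, with a filter of 10 counts in every library (-0.96) or with the siTead1/4 libraries in place of siControl (-0.52). The highest genes did not reach the fold threshold. Hoxc10 differed by 0.18 ± 0.07 over the 6 conditions, Hoxc11 by -0.17 ± 0.08, Hoxa11 by -0.45 ± 0.07 and Hoxa10 by -0.07 ± 0.05 (SE). Without the siTead1/4 libraries the sign of Hoxa10 turned, to 0.06.

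The genes that work with Hox proteins were taken as lists. Their counts stand beside 19.7% of all genes called higher in PMs and 11.2% called lower over the 6 conditions. Of 9 Hox cofactors, TALE homeodomain proteins of the Pbx, Meis and Pknox families that bind DNA with them, 1 was higher and 3 lower in PMs over the 6 conditions, with a median of -0.29. Meis2 had a median of 3.49 CPM in PMs and 43.4 in C2C12 cells (-3.53 ± 0.12, SE). Meis1 differed by -1.16 ± 0.08 on the log2 scale. Pknox2 was higher by 2.17 ± 0.10 over the 6 conditions. By day in siControl cells, it was called higher in PMs at day 0 alone (5.29 ± 0.28). It rose by day 3 in siControl C2C12 cells (3.76 ± 0.30) and fell by day 3 in siControl PMs (-1.23 ± 0.18). Of 15 limb and axial position factors, 8 of the 14 tested were higher in PMs and 2 lower, with a median of 2.40. Only 10 of the 15 passed the filter in the fit of C2C12 cells alone. Factors that passed through the PM libraries alone had to differ, so their calls add nothing to the counts. Lbx1, which guides muscle precursors into the limb, had 38.3 to 70 CPM in PMs and 0.047 to 1.53 in C2C12 cells (7.31 ± 0.15). Tbx4, a hindlimb factor, had 5.72 to 18.8 CPM in PMs and 0 to 2.67 in C2C12 cells (4.75 ± 0.22). Pax3 had 444 counts in PMs and 31 in C2C12 cells. Tbx18 was lower in PMs, with a median of 11.3 CPM against 68.5 (-2.43 ± 0.10). Pitx1 and Tbx5, the textbook hindlimb and forelimb factors, were singled out after their values were seen. Pitx1 had 266 counts over the PM libraries and 4 over the C2C12 libraries, and Tbx5 had 27 and 9.

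Of the genes that flank Hox clusters or form the related ParaHox set, 7 of 11 listed were in the table and 2 were tested. Both were higher in PMs, Meox2 (a limb muscle homeobox gene) with 906 counts against 8 and Meox1 (a somite gene) with 2724 against 190. Meox2 passed the filter through the PM libraries alone, so its call adds nothing to the counts. Of 22 Polycomb genes, whose complexes keep Hox genes silent, 1 was lower in PMs and none higher over the 6 conditions, with a median of -0.30, and the 1 was Cbx6 (-1.35 ± 0.12). Of 12 tested Trithorax and demethylase genes, which act against Polycomb, none was called, with log2 differences from -0.41 for Dpy30 to 0.61 for Wbp7. Hoxa11as and Hoxb3os, the 2 tested members of the noncoding list, were not called over the 6 conditions, where Hoxa11as stood just under the fold threshold at -0.996 ± 0.081. In siControl cells Hoxa11as was called lower in PMs at day 3 (-1.06 ± 0.20) and day 6 (-1.15 ± 0.20).

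siTead1/4 left nearly all Hox genes without a call. In C2C12 cells, none of 22 tested members was called at day 0 (0.438% of all genes), day 3 (1.27%) or day 6 (0.0457%) by edgeR, with 3, 3 and 2 members at an unadjusted p under 0.05. DESeq2 also called none of them there. In PMs, 1 of 26 was called at day 0 (2.6% of all genes), 1 at day 3 (3.3%) and none at day 6 (0.743%), where 2 had an unadjusted p under 0.05 and DESeq2 called none. The gene called at day 3 was Hoxc12, lower with siTead1/4.

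Hoxc12, a posterior gene that precedes Hoxc13 in the cluster, was lower in both siTead1/4 libraries than in both siControl libraries in each of the 6 pairs of cell type and day. In siControl PMs of days 0, 3 and 6 it had 0.466 and 0.676, 1.26 and 1.34, and 1.07 and 1.11 CPM. With siTead1/4 it had 0.165 and 0.257, 0.3 and 0.548, and 0.491 and 0.682. In siControl C2C12 cells it had 0.929 and 0.8, 0.849 and 0.87, and 0.944 and 1.2 CPM, and with siTead1/4 0.399 and 0.476, 0.503 and 0.417, and 0.461 and 0.576. The log2 differences were -1.41 ± 0.41, -1.63 ± 0.36 and -0.89 ± 0.37 in PMs and -0.99 ± 0.35, -0.93 ± 0.34 and -1.03 ± 0.34 in C2C12 cells (SE, n = 2 a group). Of the 6, day 3 in PMs passed both thresholds, with edgeR's adjusted p at 0.0236, and the adjusted p of the others ranged from 0.0638 to 0.48. Hoxc12 was the only 1 of 27 members lower without overlap in all 6, beside 0.585% of all genes, and it was singled out after its values were seen. Its counts were 7 to 53 per library, and the day 3 call ended without either siControl replicate, without siTead1/4 replicate 1, or in a fit of the 4 libraries alone (adjusted p = 0.0622).

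With siTead1/4 the HoxD genes in PMs were not called at any day. Hoxd8 differed by -0.28 ± 0.20 at day 0 and by -0.48 ± 0.18 at day 3, where siTead1/4 PMs had 6.52 and 6.15 CPM against 8.36 and 9.2 (adjusted p = 0.151). In C2C12 cells HoxD stayed at 0 with siTead1/4, apart from the 4 counts of Hoxd11. No difference of the siTead1/4 effect between PMs and C2C12 cells was called among the 27 members at day 0 (0.00591% of all genes), day 3 (1.25%) or day 6 (0.0354%), with 2, 2 and 0 members at an unadjusted p under 0.05 in edgeR and none called by DESeq2.

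**Figure D4:**
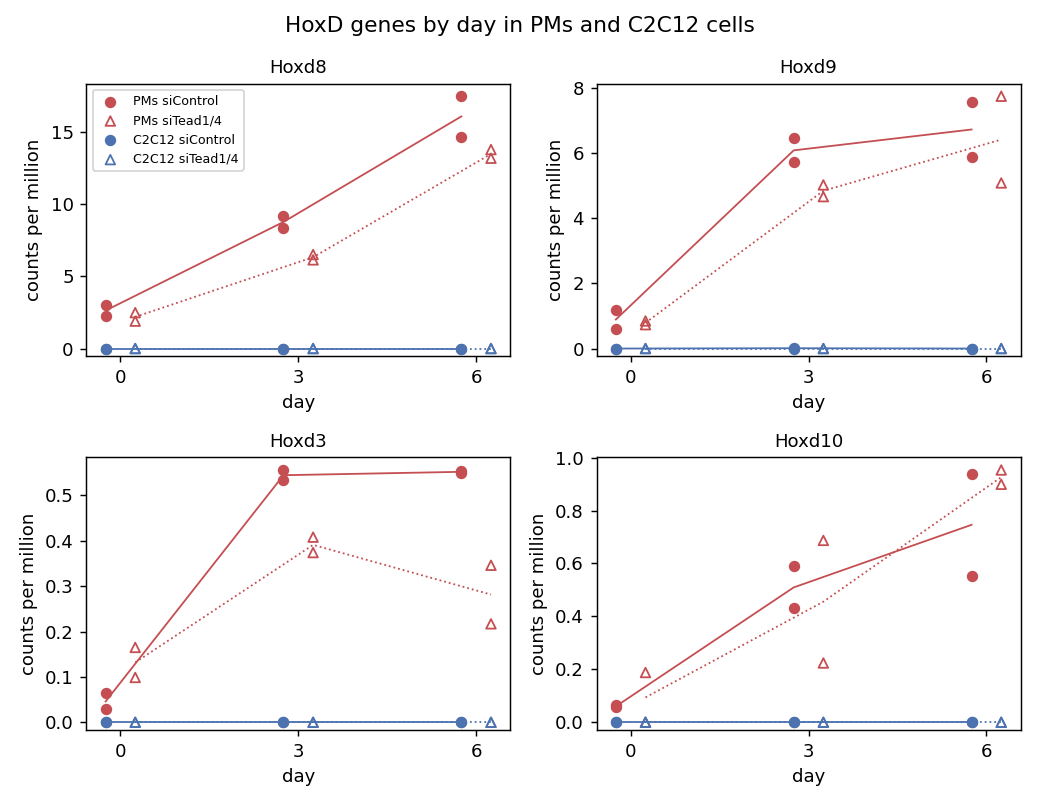
CPM (y axes, each gene on its own scale) of 4 HoxD genes by day (x axis). Filled circles are siControl and open triangles siTead1/4 libraries, solid and dotted lines join the means of 2 replicates, and PMs are red and C2C12 cells blue. The 4 genes climb from day 0 in siControl PMs, with Hoxd8 at 14.7 and 17.5 CPM at day 6, and the C2C12 points lie at or next to 0.

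HoxD expression in PMs rose as the cells differentiated. In siControl PMs, 5 members rose and 2 fell by day 3 out of 26 tested, beside 32.3% of all genes called in either direction, and 5 rose and 3 fell by day 6 (35.5% of all genes). The 4 tested HoxD genes rose at both days. Hoxd3 and Hoxd10, near the floor at day 0, passed the filter through the later days. Their calls add nothing to their counts. Hoxd8 rose by 1.67 ± 0.19 on the log2 scale by day 3 (edgeR adjusted p = 3.27e-05) and by 2.54 ± 0.20 by day 6 (adjusted p = 1.74e-06). Hoxd9 rose by 2.69 ± 0.33 and 2.82 ± 0.33 (SE). Hoxd3 rose from 4 counts in both libraries together, with a ratio of 11.3 at day 3 (95% counting interval 4.08 to 43.3) and 11.4 at day 6 (4.07 to 44.3). Hoxd10 rose from 5 counts, with ratios of 8.35 (3.28 to 27.2) and 12.4 (4.93 to 39.8), and its day 3 call ended without replicate 1 or 2 of siControl at day 0 or replicate 1 at day 3. The HoxD share of the summed level went from 1.96% and 1.46% at day 0 to 7.3% and 7.09% at day 3 and 11% and 10.2% at day 6. With siTead1/4 it was 1.61% and 1.22%, 6.65% and 5.24%, and 11% and 9.32%.

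Markers of other cells moved over the same days. The summed level of the 10 fibroblast markers in siControl PMs was 149 to 160 at day 0, 445 to 520 at day 3 and 840 to 1140 at day 6. Of the 9 tested, 3 and then 6 were called higher and none lower, beside 32.3% and 35.5% of all genes called in either direction. The Schwann cell sum was 22.8 to 24.5, 61.2 to 66.4 and 45.9 to 54.4, the endothelial sum 0.82 to 2.97, 0.88 to 4 and 1.21 to 3.15, and the macrophage sum 2.15 to 2.17, 1.3 to 1.38 and 2.06 to 2.1. The myogenic sum was 2770 to 2820, 6800 to 7110 and 5610 to 6220. In siControl C2C12 cells the fibroblast sum was 368 to 524 at day 0 and 931 to 972 at day 3, with HoxD at 1 count. Of the 8 fibroblast markers tested there, 5 were called higher at day 3 and none lower, beside 28.7% of all genes called in either direction. The part of these cells in the rise of HoxD was not tested.

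Over the same days Hoxa11 and Hoxa6 fell in siControl PMs. Hoxa11 went from 24.3 and 27.4 CPM at day 0 to 15 and 14.5 at day 3 and 10.1 and 10.7 at day 6, with no overlap between days (-1.38 ± 0.14 at day 6, SE, edgeR adjusted p = 9.16e-06). Hoxa11as, which overlaps it and cannot be told apart from it without strand, fell as well, by 1.43 on the log2 scale at day 3 and by 1.69 at day 6. Hoxa6, a mid-trunk gene, went from 5.09 and 4.25 CPM to 2.36 and 1.96 at day 6 (-1.18 ± 0.26), and was not called with all 24 libraries in 1 fit (adjusted p = 0.0715). Hoxa4 rose, from 2.06 and 1.66 to 3.66 and 4.99 CPM at day 6 (1.15 ± 0.22), and without replicate 2 of day 6 the value was 0.90 and not called. Hoxc5 fell by day 3, from 1.5 and 2.48 to 0.729 and 1.06 CPM (-1.20 ± 0.31), and Hoxc12 rose by day 3 (1.14 ± 0.35). The Hoxc5 call ended without replicate 2 of day 0 or replicate 1 of day 3, and the Hoxc12 call without replicate 1 of day 0 or replicate 2 of day 3 or in DESeq2 (adjusted p = 0.0506).

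In siControl C2C12 cells 2 of 22 members were called at day 3 (28.7% of all genes) and 2 at day 6 (31.1% of all genes), all lower than at day 0. Hoxa9, a gene of lower trunk patterning, went from 25.6 and 24.4 CPM to 9.48 and 13.6 at day 3 (-1.15 ± 0.26, edgeR adjusted p = 0.00564), and was not called without replicate 1 of day 3. Hoxa5 went from 4.19 and 4.83 CPM to 1.81 and 2.17 at day 6 (-1.22 ± 0.35), and Hoxc8 from 1.46 and 1.63 to 0.495 and 0.789 at day 3 and 0.405 and 0.668 at day 6 (-1.30 ± 0.44 and -1.60 ± 0.46). The groups did not overlap for any of these. The call of Hoxc8 at day 3 ended without any 1 of its 4 libraries, at day 6 without replicate 2 of day 0 or replicate 1 of day 6, and that of Hoxa5 without replicate 2 of day 0 or either replicate of day 6. HoxD could not be tested over days in these cells, where it had no more than 1 count in a siControl library.

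The change with differentiation differed between PMs and C2C12 cells for few members. By day 3 none of 27 was called (11.2% of all genes), with 4 at an unadjusted p under 0.05 in edgeR and 2 called by DESeq2. By day 6, 2 were called (12.7% of all genes). Hoxc8 fell in C2C12 cells and had 1.76 and 1.52 CPM at day 0 and 2.98 and 1.73 at day 6 in PMs, a difference between the changes of 2.08 ± 0.55 on the log2 scale (adjusted p = 0.0152). For Hoxa11 the difference was -0.88 ± 0.25, under the fold threshold. The rise of HoxD in PMs has no counterpart to be tested against, since C2C12 cells were at 0 on both days.

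**Figure D5:**
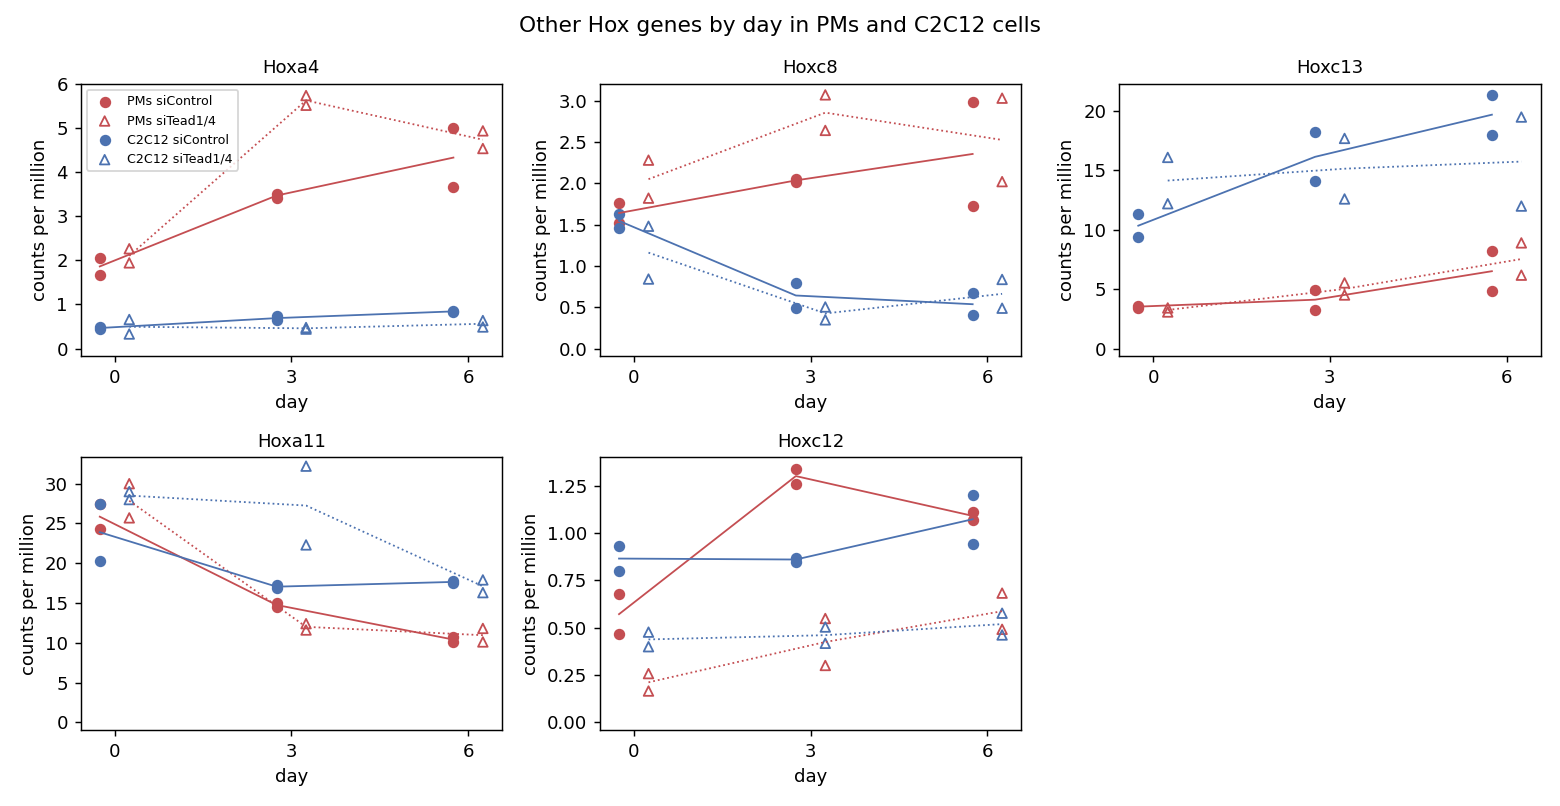
CPM (y axes, each gene on its own scale) of 5 Hox genes by day (x axis). Filled circles are siControl and open triangles siTead1/4 libraries, solid and dotted lines join the means of 2 replicates, and PMs are red and C2C12 cells blue. Hoxa4 separates the cell types in every pair of groups, and the Hoxc12 triangles lie below the circles of the same cells at each day.

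Lists of related genes were counted by day as well. In siControl cells at day 6, 35.5% of all genes were called in either direction in PMs and 31.1% in C2C12 cells. The Polycomb and Trithorax counts that follow lay below these shares in both kinds of cells. Of 13 limb and axial position factors tested in PMs, 5 were higher and 1 lower at day 6, and of 10 tested in C2C12 cells 4 were higher and none lower. Of 22 Polycomb genes, 2 were higher and 3 lower at day 6 in PMs, and 1 and 5 in C2C12 cells. Of 12 Trithorax and demethylase genes, 3 were lower at day 6 in PMs and 2 in C2C12 cells, and none was higher. Of the 9 cofactors, 1 was lower at day 6 in PMs, and 2 were higher and 1 lower in C2C12 cells.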

How the data were processed

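Messenger RNA of 12 groups was sequenced from unstranded polyadenylated libraries, with 2 biological replicates a group. Per the submitters' processing notes, CASAVA 1.8.2, TopHat2 2.0.10, Bowtie2 2.1.0, HTSeq 0.6.1 and DESeq2 1.8.1 were used with the build mm9. The way HTSeq treated overlapping genes is not given in the sources used here. Raw counts per gene and library were deposited by the authors in a table of 28109 genes. The same deposited table holds a normalized signal, the counts divided by 1 size factor per library, and that signal per gene length. It has 36 more columns, of 12 libraries that are not listed, which were not used.

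The counts were fitted with edgeR 4.0.16 in R 4.3.3. Genes were kept with filterByExpr on the groups of a fit, TMM scaled the library sizes, and glmQLFit and glmQLFTest were run on 24 libraries for PMs against C2C12 cells and for differences between them (16926 genes), and on 12 libraries of 1 cell type for siRNA and day (15303 genes in C2C12 cells, 16144 in PMs). Benjamini-Hochberg adjustment ran over all genes of a comparison. Calls needed an adjusted p below 0.05 together with a log2 difference beyond 1 in either direction, and only called genes are said to rise or fall. The fits were tested on simulated data. Log2 differences ± SE come from the fits and levels per kb use the gene length of the table. For a group with at most 3 counts in each library no fitted fold is given, but a lower bound against 3 counts in 1 library or a ratio with an exact 95% interval.

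The members and all gene lists were chosen with earlier results of these data known. Values per library are given for members called at all 3 days between cell types, for the 10 with the lowest adjusted p in the siRNA, day and difference comparisons, and for the 4 highest in each cell type. Hoxc8, Hoxc9, Hoxc12, Hoxa5, Hoxa13 and Hoxb6 were named after their values were seen. For lists, up to 4 genes are named, first those called by adjusted p. Results of 2 genes are not reported here, though counts over members and lists include them. Alternatives were DESeq2 1.42.0, other size factors, other filters, other library sets, a replicate block and leaving out each library.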

Additional observations from a re-analysis of the deposited data

Results flagged for a closer look

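The change from day 0 to day 6 in siControl cells differed between PMs and C2C12 cells for Hoxc8, by the test of the difference itself. It was 2.08 ± 0.55 (SE, log2 scale, PMs minus C2C12 cells, adjusted p = 0.0152 in edgeR), and it was no longer called without replicate 1 of PMs at day 6, replicate 2 of PMs at day 0 or replicate 1 of C2C12 cells at day 6, with values down to 1.64. The cause was not tested.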

How the results depend on the processing

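Of the counts of called Hox genes, those for PMs against C2C12 cells moved most with a filter of 10 counts in every library. In the fit of all 24 libraries it takes out HoxD, HoxB, Hoxa4 and Hoxc12 by construction and leaves 18 members. Hoxa4, called higher in PMs at all 3 days as reported, was thus not tested under this filter. Under it 1, 1, 1 and 2 members were higher in PMs at days 0, 3, 6 and over the 6 conditions, and 1, 1 and 1 higher in C2C12 cells at days 0 and 3 and over the 6 conditions. The same filter left 4 day 3 calls in PMs. It left 0 siTead1/4 calls in PMs at day 3, where Hoxc12, the member called as reported, did not pass it and was not tested. It also left 1 member whose day 3 change differed between cell types. That last count, 0 as reported, was also 1 with no filter on low counts, and 2 with a replicate block, with DESeq2 and with the libraries compared alone. Members higher in C2C12 cells at day 0 numbered 2 with DESeq2 and 2 with the siTead1/4 libraries, which gave 4 at day 3. In PMs at day 0 the siTead1/4 calls, 1 as reported, were 0 with the libraries compared alone, 0 with all 24 libraries in 1 fit and 2 with a replicate block.

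The labels do not say that a replicate number marks a shared batch, and each comparison has 2 pairs, so the numbers were not taken to pair libraries. Deviations of same-numbered libraries correlated from -0.172 to 0.0546 between PMs and C2C12 cells, from -0.13 to 0.468 within C2C12 cells and from 0.127 to 0.503 within PMs. With a replicate block the siTead1/4 calls over all genes went from 420 to 586, 532 to 792 and 120 to 290 in PMs at days 0, 3 and 6, and from 67 to 82, 195 to 258 and 7 to 12 in C2C12 cells. With each library left out in turn, members higher in C2C12 cells were 1 to 3 at day 0 and 1 to 1 at day 3, siTead1/4 calls in PMs 0 to 1 at day 0 and 0 to 1 at day 3, their differences between cell types at day 3 0 to 1, C2C12 day calls 0 to 2 at day 3 and 0 to 2 at day 6, and day 6 differences between cell types 0 to 3. A group with 1 library left was taken to vary like the others. Over the siControl libraries alone, a comparison added after seeing the data, Hoxa10 turned from -0.07 to 0.064 and Hoxa13 was 0.95. The causes were not tested. Shares by cluster were the same from the deposited normalized values, and DESeq2 size factors within edgeR moved no count by over 1.5 times.

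The 2 replicates a group limit the calls, as do the low counts of the HoxB and HoxD genes other than Hoxd8 and Hoxd9, and an absent count in C2C12 cells bounds a level at this depth only.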

Other observations

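Antisense and other noncoding genes inside the clusters were measured too. In HoxA, 5730446D14Rik had a median of 1.66 CPM in PMs and 0.408 in C2C12 cells, a log2 difference of 1.51 ± 0.19 over the 6 conditions (SE, edgeR adjusted p = 1.35e-06). It overlaps the edge of Hoxa3, which itself had a median level per kb of 0.409 and 0.367. Gm15050 had 0.739 and 0.88 (-0.26 ± 0.17, not called). Of the coding genes next to HoxA, Skap2, 143 kb before the cluster, was lower in PMs with 22 CPM against 59 (-1.22 ± 0.07), and Hibadh, 285 kb after it, had 66.3 and 48.8 CPM (0.52 ± 0.06, under the fold threshold). These genes were chosen after their values were seen.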
